A study of Mus musculus with 8 samples.

Results

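The metalloproteinases and their tissue inhibitors were followed across 4 kinds of mouse bone marrow culture. Members were taken by name from the array design: every probe, other than control spots, whose gene name is Mmp, Adam, Adamts or Timp followed by a number, with a letter suffix allowed. This gave 116 probes of 55681, for 78 genes of 34787: 23 matrix metalloproteinases (Mmp), 32 genes named Adam, 19 named Adamts and the 4 Timp inhibitors. RNA was measured on 8 Agilent arrays of 1 colour, 2 for each culture. The bone marrow cells of every culture, the controls included, came from B6.Cg congenic mice carrying the transgene Tg(CAG-DsRed*MST)1Nagy. In this transgene the CAG promoter drives a red fluorescent DsRed protein. Macrophages grown from bone marrow in M-CSF, the growth factor of macrophages, for 7 days were left without a further stimulus (control) or received for 24 hours either LPS, a bacterial cell wall product, or IL-4, a cytokine of type 2 immunity. Colony cells were bone marrow cells kept for 7 days on a monolayer of endothelial cells in haematopoietic stem cell medium, so substrate and medium differed together from those of the macrophages. The title of the study asks whether endothelial cells direct the formation of macrophages of the alternatively activated type. Nothing in the labels tells if the 2 samples of a kind were grown from separate animals, or gives the origin of the endothelial cells or their removal before RNA was taken. The p-values therefore measure only the spread between these samples, which may be technical.

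Matrix metalloproteinases are zinc enzymes that cut collagens, gelatin, elastin and other matrix proteins, and most are secreted or membrane-bound as inactive precursors. ADAM proteins sit in the membrane, where several cut the outer part off growth factors, cytokines and receptors, while ADAMTS enzymes are secreted and cut proteoglycans, procollagens and von Willebrand factor. TIMP proteins bind the active site of these enzymes, and macrophages are a known source of enzymes and inhibitors alike.

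A level below is the log2 signal of a probe less the 75th percentile of its array, so 0 is the signal that 1 in 4 spots exceed. The faintest signal well above background lay between -6.39 and -5.83 on this scale, depending on the array. A gene was tested where 1 of its probes passed background on the 2 arrays of any culture, and the brightest such probe stood for it. Mmp3, Mmp15, Adamts1, Adamts5, Adamts7 and Adamts9 passed only through colony cells, and Mmp25, Mmp28 and Adam3 only through LPS. The filter thus leaned towards a rise of these genes in that culture, and it was the same for all genes tested. Levels of different genes are not compared, since probes differ in how strongly they bind. A gene is said to have risen or fallen, or to be called, where the adjusted p of limma's moderated test (Benjamini-Hochberg over all 26504 genes tested) was under 0.05. With 2 arrays a side the smallest two-sided p of an exact permutation test is 0.333, so calls rest on variances shared across genes. Of the 78 members, 59 were tested: 18 Mmp, 24 Adam, 13 Adamts and all 4 Timp genes. The other 19 (Mmp1a, Mmp1b, Mmp16, Mmp20, Mmp21, Adam1b, Adam2, Adam6a, Adam23, Adam24, Adam28, Adam29, Adam34, Adamts3, Adamts12, Adamts15, Adamts16, Adamts19 and Adamts20) passed in no culture. Of these, 10 were above background on no array and 9 on 1 to 3 arrays.

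The arrays were of like quality except LPS replicate 2. That array had 72.2% of its spots well above background against 62.4% to 67.5% on the other 7, 105 uneven spots against 0 to 5, and a spike-in detection limit of 2.10 that the scanner software put out of range.

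LPS raised the genes of the membrane enzyme Mmp14 and the collagenase Mmp13, raised the inhibitor gene Timp1 and lowered Timp2. Mmp14 and Mmp13 rose by 6.67 ± 0.16 and 6.01 ± 0.14 on the log2 scale, Timp1 rose by 5.30 ± 0.10, and Timp2 fell by 4.35 ± 0.16. Of the 59 members tested, 36 were called, 27 higher and 9 lower, or 61.0% of them, against 54.7% of all genes (28.9% higher and 25.8% lower). The Mmp family had 10 rises and 2 falls among 18, Adam 10 and 4 among 24, Adamts 6 and 2 among 13, and Timp 1 and 1 among 4. Of the rises, those of Mmp25, Mmp28 and Adam3 are of genes tested only because they passed background with LPS. The median change of the tested members was 0.51, against 0.07 over all genes. Mmp3 and Adamts1 are among the 36 although both were below background in both cultures. Without LPS replicate 2 the members' median was 0.40 against 0.01 over all genes, and without control replicate 1 it was 0.44 against 0.10. Normexp, a background correction that adds 50 intensity units, compresses faint signals. With normexp 23 members were called, 12 higher and 11 lower, or 39% against 55.4% of all genes. The members' median was then -0.07 against -0.15 over all genes. With only the 2 cultures compared 24 were called, or 40.7% against 42.2% of all genes. The share of members called was thus above that of all genes in some settings and below it in others.

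IL-4 moved fewer members, and the metalloelastase gene Mmp12 the most. Mmp12 rose by 3.51 ± 0.18, Mmp13 by 2.36 ± 0.14 and Mmp10 at least 3.18-fold from a control level below background, while Mmp14 fell by 1.39 ± 0.16 and Adam22 by 1.78 ± 0.12. Of 59 members 17 were called, 8 higher and 9 lower (28.8%, against 19% of all genes, 9.87% higher and 9.18% lower), and 11 of the 17 were Mmp genes, 5 higher and 6 lower. Adam genes gave 2 rises and 3 falls, Timp1 rose, and no Adamts gene was called. The median change was -0.01 for the members and -0.01 for all genes. Mmp25 is counted among the falls although it was below background in both cultures. Without control replicate 2 the median change was -0.02 for the members and -0.03 for all genes. Without IL-4 replicate 1 these were 0.02 and 0.01, and without IL-4 replicate 2 they were -0.12 and -0.02. Each of these settings called fewer members and also fewer of all genes.

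In colony cells most of the tested Mmp, Adamts and Timp genes rose over control macrophages, and 13 of 24 Adam genes fell. Timp3 rose by 10.49 ± 0.54, Timp1 by 7.95 ± 0.10 and Mmp2 by 7.98 ± 0.27, and 8 of 13 Adamts genes rose. Of 59 members 46 were called, 28 higher and 18 lower, or 78.0%, against 71.4% of all genes (24.7% higher and 46.7% lower). The Mmp family had 12 rises and 4 falls among 18, Timp 3 rises among 4, Adamts 8 rises and 1 fall among 13, and Adam 5 rises and 13 falls among 24. Of the genes that rose, Mmp3, Mmp15, Adamts1, Adamts5, Adamts7 and Adamts9 were tested only because they passed background in colony cells. Mmp25 is among the falls although it was below background in both cultures. The median change was 0.46 for the members and -0.35 for all genes. With normexp these were -0.38 and -0.46. It called 26 members higher and 28 lower, or 91.5% of them, against 80.8% of all genes. Without the filter on dim probes the members' median was -0.06.

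Markers of other cell types moved with these colony-cell values. Each list of marker genes is given as the log2 of its summed signal, on the same scale, so its brightest genes weigh most. The fibroblast list was at 8.68 to 8.69 in colony cells and -0.36 to -0.06 in control, with 8 genes called higher and 1 lower. Of its genes, 10 of 10 were above background in colony cells and 5 of 10 in control. The mesothelial list (10 of 10 and 2 of 10) was at 8.63 to 8.68 and -3.55 to -3.47, and the smooth muscle and pericyte list (8 of 8 tested genes and 6 of 8) at 8.46 to 8.54 and 2.34 to 2.67. The epithelial list, with 7 of 10 genes tested, was at 4.79 on both colony-cell arrays (6 genes above background) and -0.97 to -0.91 in control (3 and 4 genes). Of those 7 epithelial genes 3 were called higher and 2 lower, with a median change of -0.34, and the 3 that rose were Cdh1, Krt8 and Krt18. Lists of the blood lineage differed among themselves. The macrophage list went from 11.02 and 11.03 in control to 7.44 and 7.48 in colony cells, and the pan-leukocyte list from 10.46 and 10.49 to 7.68 and 7.69, with every gene of both lists still above background. The mast cell and basophil list rose, from -0.21 and -0.55 in control to 2.89 on both colony-cell arrays, and all 9 of its tested genes were called higher (3 above background in control, 9 in colony cells). That list was at 3.12 and 3.22 with LPS, where 2 of its 9 tested genes were called higher and 1 lower. Of these genes 3 were above background on both LPS arrays. The neutrophil list was at 7.77 and 7.70 in control and 7.21 and 7.36 in colony cells, with 3 of 10 genes called higher and 2 lower. The median level of its genes went the other way, from 0.18 and 0.23 in control to 1.12 and 1.17 in colony cells. The endothelial list was at 4.46 and 4.47 in colony cells and 5.08 and 5.27 in control. Of its 9 tested genes 4 rose, Esam the most (at least 451-fold), and 4 fell, Cdh5 to below background on both arrays, and 8 were above background in colony cells against 6 in control. Xist, the RNA of the inactive X chromosome, was above background in colony cells only, at 0.88 and 0.78, and below it on both arrays of the other cultures. The 4 Y-linked genes of the same list (Ddx3y, Eif2s3y, Kdm5d and Uty) all fell in colony cells, Kdm5d to below background. The part of these other cell types in the colony-cell values below was not tested. In RNA from whole cultures, fewer cells of a type and less RNA per cell cannot be told apart.

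**Figure D1:**
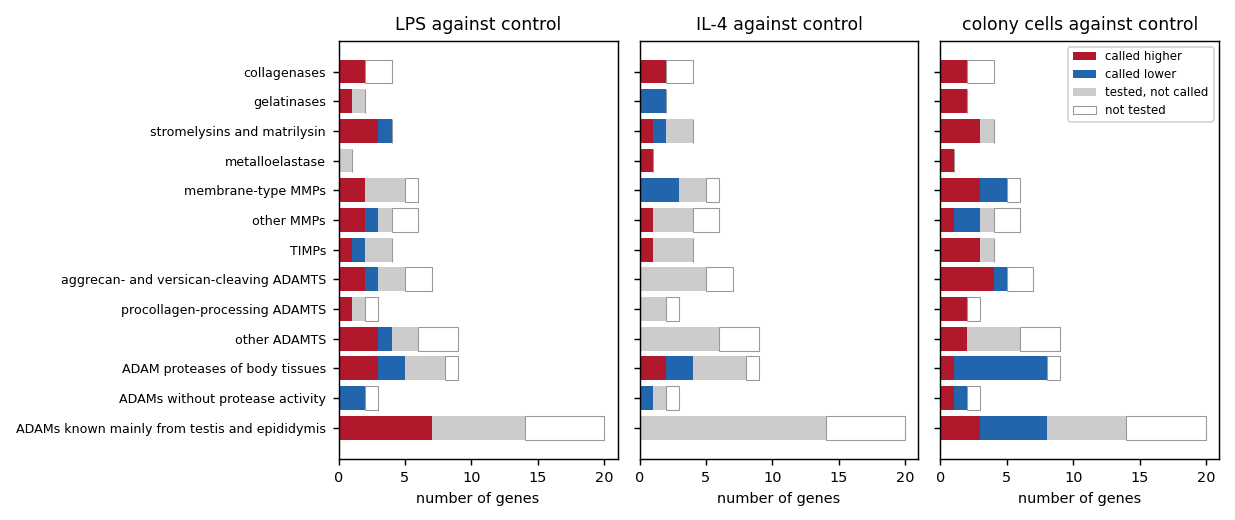
Number of genes (horizontal axis) of each member class that were called higher (red), called lower (blue), tested and not called (grey) or not tested (white), for LPS, IL-4 and colony cells against control. The 14 tested testis and epididymis ADAM genes gave 7 rises with LPS (28.9% of all genes rose) and none with IL-4, and 7 of 8 tested ADAM proteases of body tissues fell in colony cells (46.7% of all genes fell).

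The array holds 10 Mmp genes that lie side by side on chromosome 9. On build mm9 their probes span 414939 bases, from Mmp13 through Mmp12, Mmp1b, Mmp3, Mmp1a, Mmp10, Mmp8, Mmp27 and Mmp20 to Mmp7 (chr9:7282762-7697700), and 7 of the 10 were tested. With LPS 5 of the 7 were called higher, Mmp3 among them while below background in both cultures, and Mmp27 fell, with IL-4 4 rose and none fell, and in colony cells 5 rose and Mmp27 fell. Over all genes the shares called higher and lower were 28.9% and 25.8%, 9.87% and 9.18%, and 24.7% and 46.7% in the same order. The 5 called higher differed between cultures: Mmp12 was not among those of LPS, and Mmp7 was not among those of colony cells. Mmp3 was tested only because it passed background in colony cells.

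The promoters of this cluster share a sequence that the naming rule did not use. RefSeq promoter entries (build GRCm38.p6) were found for 48 of the 78 members, with 53 start sites, and for all 10 genes of the cluster. In the 250 bases before the start, the letters TGANTCA, the element bound by AP-1 transcription factors, were found on either strand in 8 of the 10 cluster genes, between 29 and 95 bases before the start. None of the 8 other Mmp genes with an entry had it, and 3 of the other members did (Adam19, Adam25 and Adam29). That made 20.8% of the members' 53 promoters, against 6.75% of all 32851. The 8 sequences are shown as the 100 bases before the start, on the gene's strand, with the match in capitals, because they let the cluster genes be compared letter by letter:
Mmp13 (chr9:7272414-7272513, + strand): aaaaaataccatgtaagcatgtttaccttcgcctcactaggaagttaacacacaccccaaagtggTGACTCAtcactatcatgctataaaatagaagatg
Mmp12 (chr9:7347274-7347373, + strand): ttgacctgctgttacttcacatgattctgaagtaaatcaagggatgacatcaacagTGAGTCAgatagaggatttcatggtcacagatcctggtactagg
Mmp1b (chr9:7388027-7388126, - strand): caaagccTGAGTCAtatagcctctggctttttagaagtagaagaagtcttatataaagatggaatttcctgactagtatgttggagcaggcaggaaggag
Mmp3 (chr9:7445722-7445821, + strand): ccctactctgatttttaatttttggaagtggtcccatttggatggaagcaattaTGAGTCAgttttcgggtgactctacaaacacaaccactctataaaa
Mmp1a (chr9:7464041-7464140, + strand): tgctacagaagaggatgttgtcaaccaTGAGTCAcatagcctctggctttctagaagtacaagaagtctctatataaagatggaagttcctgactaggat
Mmp10 (chr9:7502242-7502341, + strand): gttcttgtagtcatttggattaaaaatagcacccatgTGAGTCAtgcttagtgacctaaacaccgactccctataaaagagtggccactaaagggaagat
Mmp20 (chr9:7628131-7628230, + strand): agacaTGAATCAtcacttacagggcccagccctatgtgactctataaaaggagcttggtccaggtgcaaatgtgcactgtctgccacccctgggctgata
Mmp7 (chr9:7691990-7692089, + strand): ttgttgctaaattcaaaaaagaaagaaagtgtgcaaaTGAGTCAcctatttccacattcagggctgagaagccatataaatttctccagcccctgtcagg
Of the 8, 6 carried TGAGTCA, Mmp13 carried TGACTCA and Mmp20 carried TGAATCA. Mmp12 has 2 start sites in RefSeq and the match stands before 1 of them. In the same windows the NF-kB letters GGG and CC with 5 bases of any kind between them were in 52.8% of member promoters and 45.8% of all, the STAT6 letters TTC and GAA with 4 bases between them in 3.77% and 5.85%, and TATAAA in 22.6% and 12.4%, each searched on both strands. A match is a description of these letters, and 3 of the 8 genes with the AP-1 letters (Mmp1a, Mmp1b and Mmp20) were not tested. Of the cluster genes without them, Mmp8 rose in all 3 comparisons, and Mmp27 fell with LPS and in colony cells. A link between the letters and the changes was not tested.

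**Figure D2:**
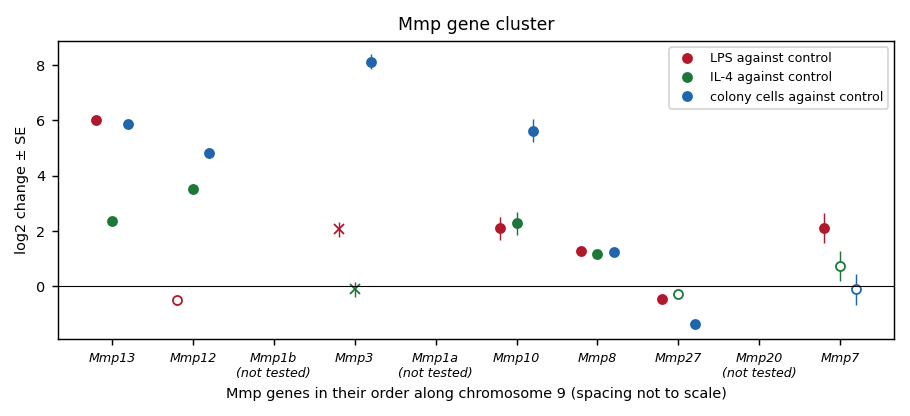
Log2 change (vertical axis, bars ± SE, 2 arrays per culture) of the Mmp genes in their order along chromosome 9, for LPS (red), IL-4 (green) and colony cells (blue) against control. Filled points were called, open points were not, and crosses mark Mmp3 where it was below background in both cultures compared; Mmp13 is high in all 3 comparisons and Mmp12 in IL-4 and colony cells only.

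The collagenases are the enzymes that can cut the intact triple helix of fibrillar collagen. Mmp13, the main collagenase of rodents (probe at chr9:7282762-7282821, mm9), was at -0.56 and -0.75 in control, 1.61 and 1.79 with IL-4, 5.19 and 5.51 with LPS and 5.19 and 5.21 in colony cells. Both arrays of each stimulated culture lay above both control arrays, and those of LPS and colony cells overlapped. The rises were 6.01 ± 0.14 with LPS (adjusted p = 3.4e-06), 2.36 ± 0.14 with IL-4 (4.2e-04) and 5.86 ± 0.14 in colony cells (1.3e-06), and colony cells minus LPS was -0.15 ± 0.14 (adjusted p = 0.34). Mmp8, the collagenase stored by neutrophils, changed by a like amount in each. It stood at 0.20 and 0.14 in control, 1.24 and 1.41 with IL-4, 1.40 and 1.50 with LPS and 1.29 and 1.52 in colony cells. The 3 other cultures overlapped each other and none overlapped control. Its rises were 1.28 ± 0.11, 1.16 ± 0.11 and 1.24 ± 0.11 with LPS, IL-4 and in colony cells (adjusted p = 2.8e-04, 0.0021 and 1.8e-04).

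The gelatinases Mmp2 and Mmp9 cut denatured collagen and the collagen of basement membranes. Mmp2 was at -4.78 and -4.35 in control, -5.61 and -6.36 with IL-4, -3.84 and -3.99 with LPS and 3.51 and 3.32 in colony cells. Only the colony-cell arrays reached a level above that of the 75th percentile, and no 2 cultures overlapped. Against control it rose by 7.98 ± 0.27 in colony cells (adjusted p = 4.5e-06) and fell by 1.42 ± 0.27 with IL-4 (adjusted p = 0.02), where 1 of the 2 arrays was above background, and the LPS change of 0.65 ± 0.27 was not called (0.096). The IL-4 fall was no longer called without control replicate 2 (a change of -1.21) or without IL-4 replicate 2 (-1.05). Mmp9 was near the detection limit in control (-6.07 and -5.74, above background on 1 array), below it with IL-4 (-6.92 and -6.46) and above it with LPS (-3.34 and -3.35) and in colony cells (-0.24 and -0.38). It rose by 2.56 ± 0.18 with LPS and 5.60 ± 0.18 in colony cells (adjusted p = 1.5e-04 and 3.8e-06). With IL-4 the fall was at least 1.14-fold (adjusted p = 0.038), and the call was lost without control replicate 1 (-0.95), control replicate 2 (-0.62), IL-4 replicate 1 (-0.55) or any array of the other 2 cultures (-0.78), and with normexp (-0.29).

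Stromelysins cut proteoglycans, laminin and fibronectin, and matrilysin (Mmp7) does so without the carboxy-terminal domain of the others. Mmp3 was below background on all 6 macrophage arrays (-8.00 and -7.88 in control, -8.13 and -7.95 with IL-4, -6.30 and -5.44 with LPS) and at 0.14 and 0.21 in colony cells. Colony cells stood apart from every macrophage array, at least 73.0-fold above control (adjusted p = 4.1e-06). Mmp10 was below background in control (-5.88 and -7.20) and above it elsewhere, at -4.22 and -4.29 with IL-4, -4.56 and -4.30 with LPS and -1.02 and -0.80 in colony cells. The rises were at least 3.18-fold, 2.82-fold and 32.3-fold (adjusted p = 0.017, 0.0075 and 8.5e-05), and the IL-4 call was lost without either IL-4 array (2.25 and 2.32) and with normexp (0.24). The LPS call was lost with normexp too. IL-4 and LPS lay close together for this gene, with a difference of 0.18 ± 0.42 (adjusted p = 0.74).

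Mmp11, a stromelysin activated inside the cell by furin, went the other way in macrophages. Its levels were -1.84 and -1.75 in control, -2.77 and -2.93 with IL-4, -4.25 and -4.91 with LPS and 1.91 and 1.93 in colony cells, with no overlap between cultures. It fell by 2.78 ± 0.21 with LPS (adjusted p = 1.9e-04), fell by 1.06 ± 0.21 with IL-4 (0.024) and rose by 3.71 ± 0.21 in colony cells (3.2e-05). The IL-4 call was lost when any 1 of the arrays of control (-1.10 and -1.01), IL-4 (-1.13 and -0.98) or colony cells (-1.06) was left out, and with quantile normalisation (-1.01), median centring (-1.02) or the deposited value table (-1.02). Mmp7 was at -5.44 and -7.11 in control and -4.04 and -4.30 with LPS, a rise of 2.11 ± 0.55 (adjusted p = 0.021) that was not called with normexp or without either LPS array.

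Mmp12, the metalloelastase named for its discovery in macrophages, separated IL-4 and colony cells from control and LPS. Its brightest probe (chr9:7352935-7352994, mm9) was at 0.06 and -0.35 in control, 3.23 and 3.51 with IL-4, -0.59 and -0.69 with LPS and 4.54 and 4.82 in colony cells. It rose by 3.51 ± 0.18 with IL-4, an 11.4-fold difference (adjusted p = 3.0e-04), and by 4.82 ± 0.18 in colony cells, 28.3-fold (adjusted p = 6.5e-06). Colony cells stood above IL-4 by 1.31 ± 0.18 (adjusted p = 0.0013). With LPS the change was -0.50 ± 0.18 (adjusted p = 0.065) and not called. A second Mmp12 probe gave the same order for IL-4 and colony cells, and with LPS was below background on both arrays (-8.18 and -7.85, against -5.19 and -5.21 in control), so the probes differ in call for LPS.

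**Figure D3:**
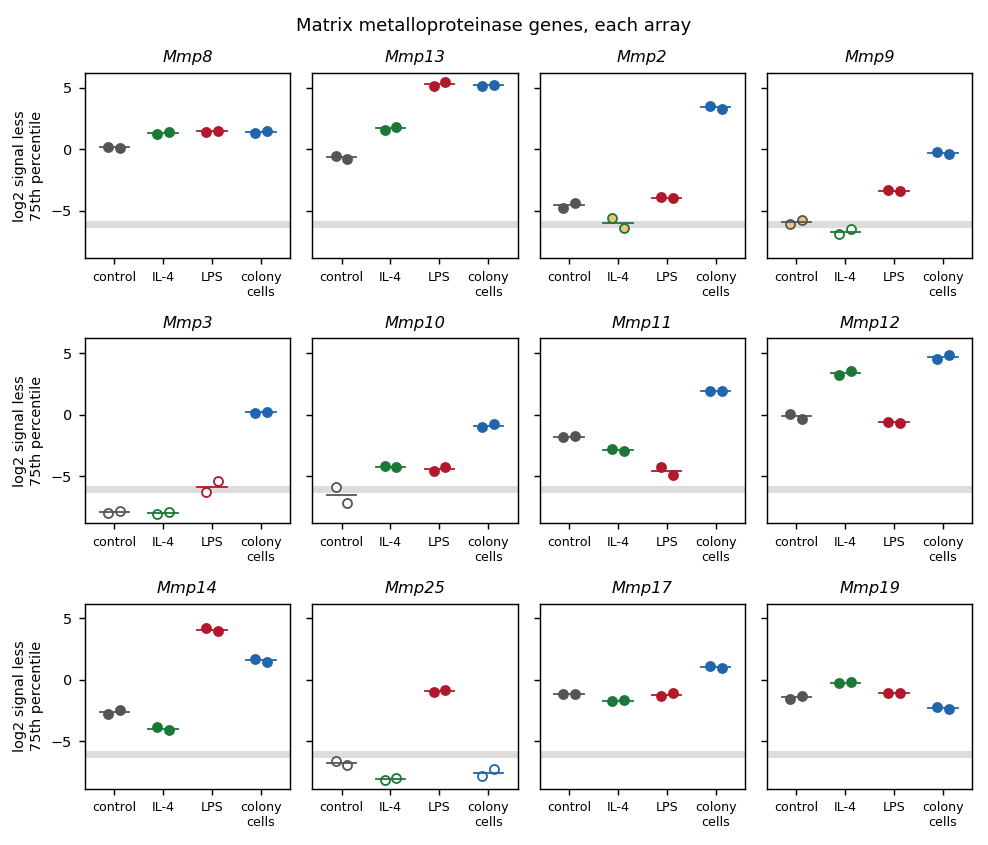
Levels of 12 Mmp genes on each of the 8 arrays (vertical axis, log2 signal less the array's 75th percentile; bars are means of 2 arrays). Points are filled where both arrays of the culture were well above background, orange where 1 was and open where none was, and the grey band is the range of the faintest signals well above background; Mmp25 rises above it with LPS only, and Mmp3 in colony cells only.

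The membrane-type enzymes cut matrix at the cell surface, and Mmp14 also activates the Mmp2 precursor together with Timp2. Mmp14 (probe at chr14:55058775-55058834, mm9) was at -2.75 and -2.44 in control, -3.88 and -4.10 with IL-4, 4.18 and 3.96 with LPS and 1.70 and 1.45 in colony cells. No 2 cultures overlapped, and IL-4 lay below control while LPS and colony cells lay above it. The LPS rise of 6.67 ± 0.16 was 102-fold (adjusted p = 4.0e-06), the IL-4 change was -1.39 ± 0.16 (0.0041) and the colony-cell rise 4.17 ± 0.16 (7.2e-06). IL-4 and LPS differed by -8.06 ± 0.16 (adjusted p = 1.8e-06), the widest gap between these 2 stimuli among the 59 members tested.

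Mmp25, which is anchored by a glycolipid and known from neutrophils, was above background with LPS only. Its levels were -0.96 and -0.85 with LPS, against -6.64 and -6.91 in control, -8.17 and -7.98 with IL-4 and -7.86 and -7.23 in colony cells. The LPS rise was at least 34.4-fold over control (adjusted p = 1.5e-05) and LPS was at least 36.4-fold above IL-4 (adjusted p = 7.0e-06). Mmp17, the other glycolipid-anchored enzyme, was at -1.13 and -1.13 in control, -1.75 and -1.67 with IL-4, -1.33 and -1.09 with LPS and 1.08 and 0.93 in colony cells. It rose by 2.14 ± 0.11 in colony cells (adjusted p = 1.8e-05). With IL-4 it fell by 0.58 ± 0.11 (adjusted p = 0.018), a call lost when an array of control (-0.58 and -0.58) or IL-4 (-0.54 and -0.62) was left out. With LPS the change was -0.08 ± 0.11 (adjusted p = 0.55). Mmp15 was above background in colony cells only, at least 7.32-fold over control (adjusted p = 2.2e-06), and Mmp24 fell there by 0.82 ± 0.21 (0.015), a call lost without control replicate 1.

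Among the other Mmp genes, Mmp19, an enzyme of basement membranes and large tenascin, was at -1.53 and -1.34 in control, -0.24 and -0.22 with IL-4, -1.04 and -1.11 with LPS and -2.19 and -2.35 in colony cells. IL-4 was highest and colony cells lowest, with no overlap between cultures. It rose by 1.21 ± 0.10 with IL-4 (adjusted p = 0.0013) and fell by 0.83 ± 0.10 in colony cells (5.9e-04), and the LPS rise of 0.36 ± 0.10 (0.024) was lost with normexp, with median centring, with the deposited value table, and without control replicate 1 or either LPS array. Mmp27 was at 0.98 and 0.90 in control and lower in each other culture, 0.70 and 0.68 with IL-4, 0.56 and 0.44 with LPS and -0.45 and -0.36 in colony cells. The falls of 0.44 ± 0.08 with LPS and 1.34 ± 0.08 in colony cells were called (adjusted p = 0.0051 and 3.2e-05), and the IL-4 change of -0.25 ± 0.08 was not (0.081). A second Mmp27 probe changed by -0.14 with LPS and was not called. Mmp23 rose by 4.04 ± 0.15 in colony cells (adjusted p = 5.6e-06). Mmp28 (epilysin) rose at least 2.59-fold with LPS (0.0039), a call lost with normexp, where its sign turned. The deposited value table did not measure Mmp28.

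The inhibitors did not move together. Timp1, the inhibitor most often induced in inflamed tissue, was at -2.90 and -2.74 in control, -1.77 and -1.59 with IL-4, 2.42 and 2.55 with LPS and 5.09 and 5.17 in colony cells. The cultures stood in that order with no overlap, and all 6 differences between them were called. Against control the rises were 1.14 ± 0.10, 5.30 ± 0.10 and 7.95 ± 0.10, or 2.20-fold, 39.4-fold and 246-fold (adjusted p = 0.0019, 2.5e-06 and 4.5e-07). Timp2, which also takes part in Mmp2 activation, was at 6.46 and 6.85 in control, 6.70 and 6.67 with IL-4, 2.18 and 2.43 with LPS and 7.58 and 7.46 in colony cells. LPS stood apart on the low side. It fell by 4.35 ± 0.16 with LPS, 20.4-fold (adjusted p = 1.2e-05), rose by 0.86 ± 0.16 in colony cells (0.0037), and changed by 0.03 ± 0.16 with IL-4 (0.93). A second, less bright Timp2 probe fell by 2.21 with LPS, and with IL-4 rose by 0.57 (adjusted p = 0.0057 over probes), so the 2 probes differ in call for IL-4.

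Timp3, the inhibitor that binds to matrix and also blocks ADAM17 and the aggrecan-cutting ADAMTS enzymes, had the largest fitted change from control of any tested member (probe at chr10:85811696-85811755, mm9). It was at -4.25 and -4.65 in control, -5.48 and -6.54 with IL-4 (above background on 1 array), -5.82 and -4.43 with LPS and 5.96 and 6.13 in colony cells. Colony cells stood far above the 6 macrophage arrays, which overlapped one another in part. The colony-cell rise was 10.49 ± 0.54 (adjusted p = 2.1e-05), and the changes with IL-4 and LPS were -1.56 ± 0.54 and -0.67 ± 0.54 (0.11 and 0.34), neither called. Without either LPS array the IL-4 change, still -1.56, was called. Timp4 was near the detection limit everywhere, at -5.09 and -4.58, -4.70 and -4.66, -4.98 and -4.33 and -4.65 and -5.05 in the same order, and was called in none of the 6 comparisons (changes from -0.19 ± 0.28 to 0.18 ± 0.28).

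**Figure D4:**
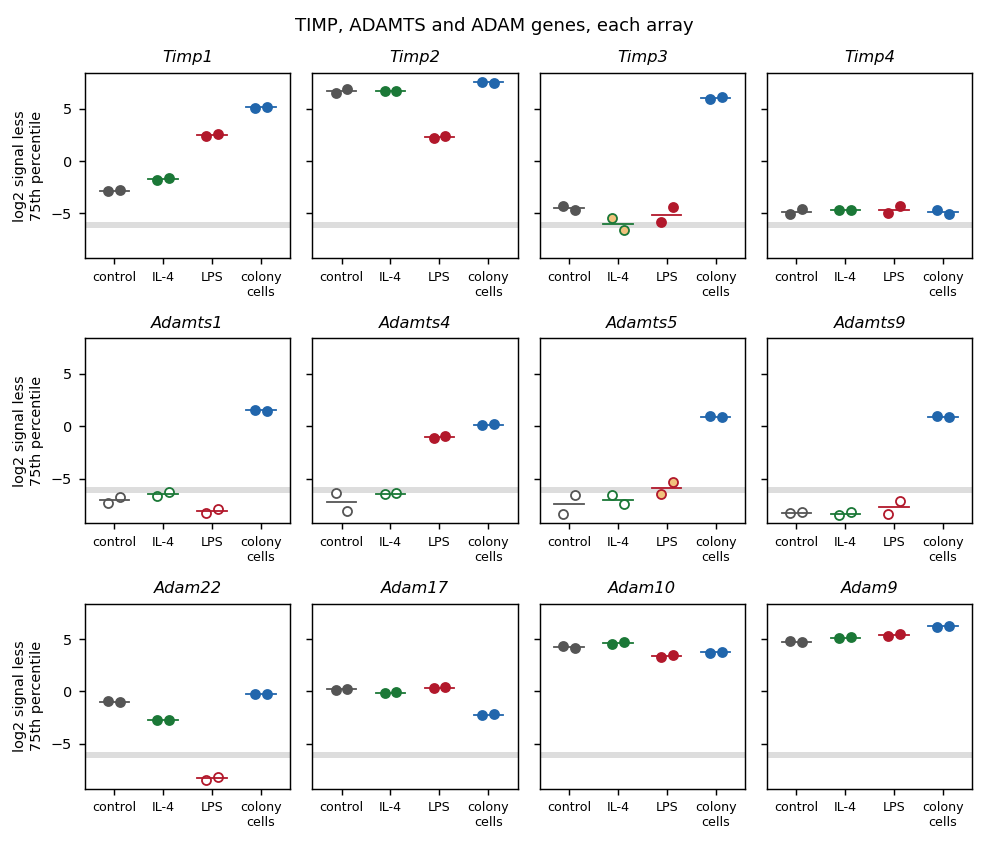
Levels of the 4 Timp genes, 4 Adamts genes and 4 Adam genes on each of the 8 arrays (vertical axis, log2 signal less the array's 75th percentile; bars are means of 2 arrays). Points are filled where both arrays of the culture were well above background, orange where 1 was and open where none was; Timp2 is low with LPS, and Adamts1, Adamts5 and Adamts9 rise above the grey band of detection limits on both arrays in colony cells only.

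Most Adamts genes that were called in colony cells rose. Of the aggrecan- and versican-cleaving enzymes, 5 of 7 were tested and 4 rose there, with Adamts8 lower. Both tested procollagen-processing genes rose, and 2 of 6 in the remaining group. Over all genes 24.7% rose and 46.7% fell in colony cells. Of the Adamts genes that rose, Adamts1, Adamts5, Adamts7 and Adamts9 were tested only because they passed background there, which leaned towards a rise. Adamts1 was at 1.53 and 1.47 in colony cells and below background on all 6 macrophage arrays (from -8.24 to -6.29), at least 183-fold over control (adjusted p = 2.5e-06). Adamts9 was at 0.97 and 0.86 in colony cells and below background elsewhere (from -8.44 to -7.10), at least 122-fold over control (1.1e-05). Adamts5, the main aggrecanase of mouse cartilage, was at 1.00 and 0.84 in colony cells, -6.47 and -5.37 with LPS (above background on 1 array), -8.35 and -6.52 in control and -6.59 and -7.42 with IL-4. The rise in colony cells was at least 122-fold (adjusted p = 1.4e-04).

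Adamts4, the other well-known aggrecanase, was the Adamts gene that LPS raised most. It was at -1.16 and -0.89 with LPS and 0.16 and 0.17 in colony cells, and below background in control (-6.35 and -8.05) and with IL-4 (-6.47 and -6.41). The rises were at least 31.8-fold with LPS (adjusted p = 2.7e-04) and at least 72.4-fold in colony cells (7.1e-05), and LPS stood at least 33.6-fold above IL-4 (4.7e-04). Adamts2, which trims the amino end of procollagen, was at 3.02 and 3.11 in colony cells, -5.37 and -4.79 in control, -6.79 and -6.95 with IL-4 (below background) and -6.21 and -4.61 with LPS (1 array above it). It rose by 8.14 ± 0.52 in colony cells (adjusted p = 4.6e-05). Adamts14, of the same role, rose by 3.60 ± 0.26 there (7.4e-05), while a second Adamts14 probe changed by -0.78 and was not called.

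In the remaining group, Adamts10, a gene of fibrillin microfibrils, was at -0.98 and -0.79 in control, -0.75 and -0.97 with IL-4, -2.32 and -2.76 with LPS and -0.37 and -0.49 in colony cells. LPS lay below all the other arrays. The LPS fall was 1.66 ± 0.17 (adjusted p = 6.0e-04), and the IL-4 and colony-cell changes of 0.03 ± 0.17 and 0.46 ± 0.17 were not called (0.94 and 0.055). Adamts6 was below background in control (-7.21 and -8.00) and with IL-4 (-8.21 and -8.04), at -5.37 and -5.22 with LPS and -3.48 and -3.78 in colony cells. Its rises were at least 1.65-fold with LPS (adjusted p = 9.7e-04) and 5.21-fold in colony cells (6.0e-05). With normexp neither was called, and the LPS change turned to -0.08. Adamts7 rose at least 42.2-fold in colony cells (adjusted p = 8.6e-05), and Adamts13, the protease of von Willebrand factor, was called in no comparison.

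Of the ADAM proteases of body tissues, 8 of 9 were tested. In colony cells 7 of them fell and Adam9 rose, where 46.7% of all genes fell and 24.7% rose. Adam17, the enzyme that releases tumour necrosis factor, was at 0.13 and 0.24 in control, -0.20 and -0.08 with IL-4, 0.28 and 0.38 with LPS and -2.26 and -2.17 in colony cells. Both colony-cell arrays lay below the 6 macrophage arrays, among which IL-4 was lowest. Adam17 fell by 2.40 ± 0.08 in colony cells, 5.28-fold (adjusted p = 4.9e-06). It changed by 0.14 ± 0.08 with LPS and -0.32 ± 0.08 with IL-4 (0.21 and 0.051). IL-4 minus LPS was called, at -0.47 ± 0.09 (adjusted p = 0.0080 over probes), and a second probe's difference of -0.26 was not. That call was lost with median centring and with the deposited value table. Adam10, which sheds Notch, cadherins and the IL-6 receptor, was at 4.32 and 4.16 in control, 4.52 and 4.72 with IL-4, 3.28 and 3.50 with LPS and 3.66 and 3.80 in colony cells. LPS and colony cells lay below control and IL-4 above it. The falls were 0.85 ± 0.13 with LPS (adjusted p = 0.0025) and 0.51 ± 0.13 in colony cells (0.013), the second lost without control replicate 1 or colony-cell replicate 1 and with quantile normalisation, and the IL-4 change was 0.38 ± 0.13 (0.096).

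Adam8, a protease of myeloid cells, was at 7.16 and 7.27 in control, 7.81 and 7.76 with IL-4, 7.37 and 7.55 with LPS and 6.17 and 6.17 in colony cells, and Adam15 was at 6.57 and 6.72, 7.06 and 7.05, 6.67 and 6.85 and 5.58 and 5.58 in the same order. For both, IL-4 lay above control and colony cells below it. Adam8 rose by 0.57 ± 0.09 with IL-4 (adjusted p = 0.0094) and fell by 1.05 ± 0.09 in colony cells (1.3e-04). Adam15 rose by 0.41 ± 0.09 (0.032) and fell by 1.07 ± 0.09 (1.5e-04). The IL-4 rise of Adam8 was lost without either IL-4 array (0.54 and 0.59). That of Adam15 was lost without any 1 array of control (0.34 and 0.48), IL-4 (0.41 and 0.41) or colony cells (0.41). The Adam15 rise was also lost with quantile normalisation, median centring, the deposited value table and no filter on dim probes.

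Adam19 and Adam33, related enzymes of mesenchymal and muscle tissue, fell with IL-4 and in colony cells. Adam19 was at 1.54 and 1.45 in control, 1.06 and 1.13 with IL-4, 1.68 and 1.83 with LPS and -0.20 and -0.22 in colony cells. It fell by 0.40 ± 0.08 with IL-4 and 1.70 ± 0.08 in colony cells (adjusted p = 0.025 and 1.6e-05). A second, fainter Adam19 probe changed by -0.04 with IL-4 and -0.07 with LPS, neither called, and by -1.33 in colony cells, which was. The IL-4 call of Adam19 was also lost as the mean of its probes (-0.22), with median centring (-0.37), with the deposited value table (-0.37) and with the replicate number as a block (-0.40). Adam33 was at 1.44 and 1.31 in control, 1.00 and 0.87 with IL-4, 1.01 and 0.82 with LPS and -0.26 and -0.41 in colony cells, and the IL-4 and LPS arrays overlapped. Its falls were 0.44 ± 0.11, 0.46 ± 0.11 and 1.71 ± 0.11 (adjusted p = 0.042, 0.014 and 4.4e-05). Both IL-4 calls were lost on leaving out any 1 array of control, IL-4 or colony cells (changes from -0.51 to -0.37 for Adam33 and -0.45 to -0.35 for Adam19), and the LPS call of Adam33 without control replicate 1 (-0.39) or LPS replicate 2 (-0.37). The IL-4 call of Adam33 was lost too as the mean of its probes, with median centring and with the deposited value table. Without the filter on dim probes the IL-4 calls of both genes were lost. Of the other Adam33 probes, 1 fell with IL-4 by 1.03 and was called, and 1 changed by -0.27 and was not. Adam19 also rose by 0.26 ± 0.08 with LPS (adjusted p = 0.04), a call lost on leaving out any 1 array other than LPS replicate 1. Adam9, a widely expressed shedding enzyme, was the exception in colony cells, with a rise of 1.47 ± 0.10 (adjusted p = 6.3e-05).

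Adam22 and Adam11 belong to the ADAM proteins without protease activity; Adam22 is the receptor of the secreted protein Lgi1 at synapses. The brightest Adam22 probe (chr5:8072390-8072449, mm9) was at -0.93 and -1.01 in control, -2.75 and -2.76 with IL-4, -0.23 and -0.24 in colony cells, and below background on both LPS arrays (-8.48 and -8.14). The 4 cultures were separate. Against control it fell at least 32.5-fold with LPS (adjusted p = 1.8e-06), fell by 1.78 ± 0.12 with IL-4 (7.3e-04) and rose by 0.74 ± 0.12 in colony cells (0.0025). LPS stood at least 9.45-fold below IL-4 (adjusted p = 2.4e-06). Another Adam22 probe, above background on 5 of 8 arrays, read -5.23 and -6.47 in control and -7.39 and -3.43 with LPS, and was called in no comparison with control. Adam11 was at 2.07 and 2.36 in control, 2.07 and 2.14 with IL-4, 1.86 and 1.83 with LPS and 0.63 and 0.54 in colony cells. It fell by 1.63 ± 0.11 in colony cells (adjusted p = 6.2e-05). Its LPS fall of 0.37 ± 0.11 (adjusted p = 0.034) was lost without control replicate 2 (-0.22), either LPS array (-0.39 and -0.35) or any array of the other cultures (-0.37), and a fainter Adam11 probe rose with LPS by 0.76, so that the mean of the probes was 0.20.

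Of 20 ADAM genes known mainly from testis and epididymis, 14 were tested, and with LPS 7 rose and none fell (28.9% and 25.8% of all genes). Most were faint. Adam3, a sperm surface protein, was at -2.53 and -2.73 with LPS and below background on the other 6 arrays (-7.03 and -7.98 in control, -6.92 and -6.48 with IL-4, -7.19 and -6.62 in colony cells), a rise of at least 10.4-fold (adjusted p = 1.7e-04). Adam30 was at -3.31 and -4.02 in control, -3.79 and -3.75 with IL-4, -1.94 and -2.52 with LPS and -6.13 and -5.60 in colony cells. It rose by 1.43 ± 0.32 with LPS (adjusted p = 0.013) and fell by 2.20 ± 0.32 in colony cells (0.0016), and the LPS call was lost without control replicate 2. Adam18 was at -5.14 and -5.85 in control, -5.75 and -5.12 with IL-4, -4.25 and -2.99 with LPS and below background in colony cells (-7.29 and -6.84). It rose by 1.87 ± 0.50 with LPS (adjusted p = 0.023), a call lost without LPS replicate 2 or control replicate 2, and in colony cells fell at least 1.78-fold (0.031), a call lost without control replicate 1 (-1.22) or either colony-cell array (-1.35 and -1.80).

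The 7 rises were followed without LPS replicate 2, the array with uneven spots. Leaving out LPS replicate 2 kept the calls of Adam3, Adam25, Adam26b, Adam30, Adam32 and Adam39, while normexp kept those of Adam3 and Adam30. Adam25, Adam26b and Adam39 also lost their calls without either control array. On LPS replicate 2, 7 of 7 tested epithelial markers and 5 of 10 mesothelial markers were above background, against 4 and 3 on LPS replicate 1 and 3 to 4 and 2 on the control arrays. The part of that array's quality in these rises was not tested beyond the values given. Adam21 differed more between the LPS arrays than any other tested member, at -0.28 and -3.41 against -4.15 and -3.82 in control, and its change of 2.14 ± 0.94 was not called (adjusted p = 0.11). In colony cells 3 of the 14 rose and 5 fell (24.7% and 46.7% of all genes), with Adam32 the highest at 3.42 ± 0.19 (adjusted p = 2.8e-05). With IL-4 none was called (19% of all genes).

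**Figure D5:**
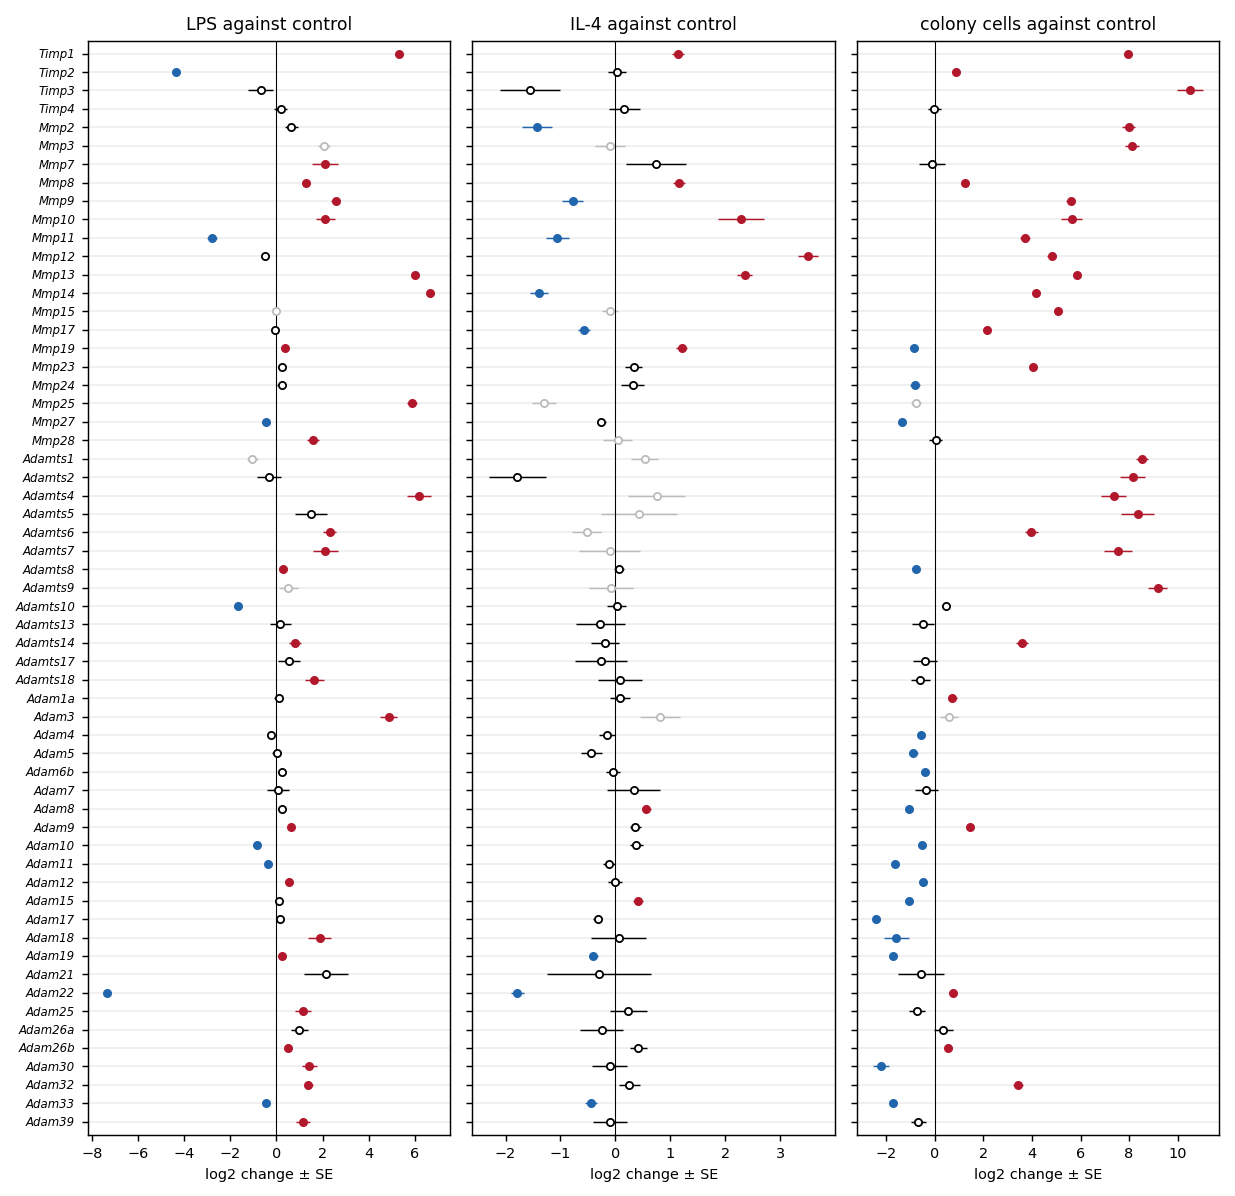
Log2 change from control (horizontal axis, bars ± SE, 2 arrays per culture; the scale differs between panels) of the 59 tested members with LPS, IL-4 and in colony cells. Red and blue points were called higher and lower, open black points were not called, and grey points were below background in both cultures; Timp2 and Adam22 stand far left with LPS, Mmp12 stands far right with IL-4, and Timp3 far right in colony cells.

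LPS and IL-4 are often used as opposed stimuli, and they were also compared directly. Of 59 members 33 were called, 10 higher and 23 lower with IL-4 than with LPS (55.9%, against 52.6% of all genes, and 25.8% higher and 26.8% lower). Adamts1 and Mmp3 are among the 33 although below background in both cultures. The median was -0.49 for the members and -0.06 for all genes. The 4 called members with the largest gaps were Mmp14, Mmp25 and Adamts4, higher with LPS, and Adam22, higher with IL-4, all given above. IL-4 minus LPS was -4.16 ± 0.10 for Timp1 and 4.38 ± 0.16 for Timp2 (adjusted p = 3.6e-06 and 1.1e-05), and 4.01 ± 0.18 for Mmp12 (2.7e-05). The called gap of Mmp13 was -3.65 ± 0.14 (1.3e-05), although both stimuli raised it over control. Mmp8 and Mmp10 showed no called difference between the stimuli (-0.13 ± 0.11 and 0.18 ± 0.42). Without IL-4 replicate 1 the members' median was -0.45, against -0.03 over all genes. With normexp 23 were called, 8 higher and 15 lower, or 39% against 47.8% of all genes.

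Colony cells were set against each stimulated culture too. Against IL-4, 42 of 59 members were called, 26 higher and 16 lower (71.2%, against 71.7% of all genes, 24.3% higher and 47.4% lower). Against LPS, 48 were called, 24 higher and 24 lower (81.4%, against 76.5% of all genes, 26.8% higher and 49.7% lower). Timp3 was the highest in both, by 12.05 ± 0.54 over IL-4 and 11.17 ± 0.54 over LPS (adjusted p = 1.3e-05 and 1.3e-05). Among the members that rose both with LPS and in colony cells, 3 are given as examples. Mmp14 was lower in colony cells than with LPS (colony cells minus LPS -2.50 ± 0.16, adjusted p = 4.5e-05), and Timp1 was higher (2.65 ± 0.10, 5.9e-06). The Adamts4 difference of 1.19 ± 0.52 was not called (0.081). A second Adamts4 probe was called higher in colony cells, by 0.81 ± 0.11 (adjusted p = 0.0011 over probes), so the probes differ in call. Of the 59 members, 7 were called in all 6 comparisons (Adam19, Adam22, Mmp9, Mmp11, Mmp14, Mmp19 and Timp1) and 4 in none (Adam7, Adamts13, Adamts17 and Timp4). The comparisons share cultures, so these counts are not independent.

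Genes that activate, anchor or restrain these enzymes were listed apart from the members: plasminogen activators and their inhibitors, the surface inhibitor Reck, furin, the iRhom partners of ADAM17, tetraspanins of ADAM10 and ADAMTS-like proteins. Of 27 such genes 23 were tested. With LPS 7 rose and 10 fell, with IL-4 5 rose and 3 fell, and in colony cells 12 rose and 5 fell, with median changes of -0.08, 0.13 and 1.06 against 0.07, -0.01 and -0.35 over all genes. The shares called were 73.9%, 34.8% and 73.9%, against 54.7%, 19% and 71.4% of all genes. Serpinb2, an inhibitor of urokinase, was below background in control and rose at least 224-fold with LPS and at least 17.8-fold in colony cells (adjusted p = 7.7e-06 and 1.6e-05). Plau, the urokinase gene, fell by 1.69 ± 0.09 with LPS (4.7e-05), and its receptor gene Plaur rose by 1.60 ± 0.09 with IL-4 (4.3e-04). Plat, the tissue-type activator, was above background in colony cells and not in control, at least 283-fold apart (1.4e-06). Rhbdf1, an iRhom gene, fell by 2.57 ± 0.08 with LPS, Tspan5 and Adamtsl5 rose by 1.50 ± 0.08 and 1.04 ± 0.12 with IL-4, and Tspan10 fell at least 2.64-fold in colony cells (adjusted p = 8.9e-06, 2.7e-04, 0.0036 and 0.001).

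Proteins that ADAM10 or ADAM17 cut from the cell surface were listed as well, and all 24 genes were tested. With LPS 9 rose and 7 fell, with IL-4 2 rose and 7 fell, and in colony cells 8 rose and 13 fell, with medians of 0.03, -0.25 and -0.66, against the same medians over all genes as above. The shares called were 66.7%, 37.5% and 87.5%, against 54.7%, 19% and 71.4% of all genes. With LPS, Tnf rose by 4.82 ± 0.09 and the Notch ligand gene Jag1 by 2.87 ± 0.13, and the lipid receptor gene Trem2 fell by 3.40 ± 0.07 (adjusted p = 2.1e-06, 2.7e-05 and 2.5e-06). Adam17, whose product cuts tumour necrosis factor, was not called with LPS, as given above. With IL-4 the growth factor gene Hbegf rose by 2.09 ± 0.14, while Cx3cl1, Mertk and Cxcl16 fell by 1.95 ± 0.18, 1.05 ± 0.10 and 1.01 ± 0.10 (adjusted p = 6.2e-04, 0.0021, 0.0021 and 0.0025). In colony cells the largest rises were those of Epha2 (at least 1473-fold), Vcam1 (10.04 ± 0.09), Ereg (at least 58.0-fold) and Efnb2 (7.32 ± 0.49), which encode a receptor kinase, an adhesion molecule, a growth factor and an ephrin (adjusted p = 2.8e-06, 4.5e-07, 9.2e-07 and 5.8e-05). These moved with the fibroblast, mesothelial and smooth muscle marker lists, whose part was not tested.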

How the data were processed

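RNA of 8 samples was hybridised to Agilent mouse arrays of 1 colour, all on 1 slide and scanned together. The deposited scanner text files hold spot intensity and flags for uneven, outlier and well-above-background spots, made with Feature Extraction 10.7.3.1 on build mm9, per the file headers. The deposited value table holds log2 values of 34119 probes. The submitters' processing notes name Partek 6.4 and RMA and give neither a role.

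The processed intensity was put on a log2 scale, less the array's 75th percentile, leaving out uneven and outlier spots and averaging spots of a probe. Probes well above background on both arrays of a culture were kept (39411), and the brightest stood for its gene. The culture means were fitted over all 8 arrays with limma 3.58.1 in R 4.3.3, giving 6 comparisons with p-values adjusted by Benjamini-Hochberg over 26504 genes. A difference from a culture below background is given as at least N-fold: the bright culture's mean over the higher, per array, of the faintest signal well above background and the probe's own. The script was tested on simulated data. The number of arrays limits precision.

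Members and gene lists were chosen with earlier results of these data known. Every array's value is given for the Timp genes, for up to 8 called members with the highest and 8 with the lowest change from control in each comparison, and for the 4 with the largest difference of IL-4 from LPS; from the pathway lists up to 4 called genes per comparison with control are named, apart from genes that are not reported here. Other members named were chosen after their values were seen. ADAM genes were to be grouped by a protein motif, but were grouped by textbook knowledge after values were seen. Alternatives were normexp background correction (offset 50), quantile normalisation, median centring, the deposited value table, no filter on dim probes, the mean of a gene's probes, an intensity trend, only the 2 cultures compared, a replicate block, and leaving out each array.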

Additional observations from a re-analysis of the deposited data

How the results depend on the processing

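With normexp 7 of the 36 members called with LPS turned sign without being called the other way (Adam25, Adam26b, Adamts14, Adamts6, Adamts7, Mmp28 and Mmp3), Adamts6 to -0.079, and so did Adam26b in colony cells. Adam11 with LPS turned to 0.20 as the mean of its probes. No other member called against control turned sign under the alternatives run, where it was measured. Values not called, most of them of Timp4, turned sign under some alternatives. The members' median turned to -0.07 for LPS with normexp, and for colony cells to -0.38 with normexp and -0.06 without the filter on dim probes. The count of members called with LPS was 23 with normexp, or 39% against 55.4% of all genes. Leaving out 1 array at a time gave 25 to 35 members called with LPS, 8 to 20 with IL-4 (8 without either IL-4 array, 11 without control replicate 2), 39 to 50 in colony cells, 22 to 38 for IL-4 against LPS, 37 to 46 for colony cells against IL-4 and 45 to 51 for colony cells against LPS. With the replicate number as a block the counts of members called were 33, 16, 46, 32, 42 and 48 in the same order. The shares were 55.9%, 27.1%, 78%, 54.2%, 71.2% and 81.4%, against 51.7%, 14.6%, 69.9%, 49.7%, 69.9% and 74.9% of all genes. With only the 2 cultures compared the counts were 24, 12, 49, 25, 49 and 47. The shares were then 40.7%, 20.3%, 83.1%, 42.4%, 83.1% and 79.7%, against 42.2%, 12.4%, 71.3%, 46.5%, 75.6% and 72.2% of all genes. That setting kept 24 of the 36 LPS calls and 11 of the 17 IL-4 calls. The IL-4 calls lost were those of Adam15, Adam19, Adam33, Mmp2, Mmp9 and Mmp10. Deviations of same-numbered arrays from their culture means correlated at -0.16 to 0.052. With 2 arrays a culture this cannot tell whether the numbers pair the samples. Normexp left 24 of the 36 LPS calls, 6 of the 17 IL-4 calls and 17 of the 46 colony-cell calls with a change more than 1.5 times smaller. Its all-gene medians were -0.15, -0.10 and -0.46 for LPS, IL-4 and colony cells. Signals near background limit the faint genes most. The cause of these changes was not tested.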
